A study of Mus musculus with 24 samples.

Results

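The 39 protein-coding genes of the mouse HoxA, HoxB, HoxC and HoxD clusters were followed through 24 RNA-seq libraries of astrocytes and neural stem cells. Members were taken by symbol from the 49671 genes of the count table (Hox, a cluster letter from a to d, and a paralogue number), and all 39 were present. The set was selected on measured counts that were high in the stem cell-derived cells and near 0 in the primary astrocytes, so that contrast is given here as a description, without a test. Hox genes encode homeodomain transcription factors that give cells their position along the head-to-tail axis. Within a cluster, low-numbered (anterior) genes are switched on earlier and further forward in the embryo than high-numbered (posterior) genes. In the developing central nervous system they are known for patterning the hindbrain and spinal cord, and the forebrain and midbrain are formed largely without them.

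The study set mouse astrocytes made from embryonic stem cells beside primary astrocytes, in 6 groups of 4 libraries. Neural stem cells (NSC) came from a single C57BL/6N embryonic stem cell line, were kept in N2B27 medium with FGF and EGF, and were used at passages 50 to 60. AGES, the astrocytes made from these stem cells, were NSC after 3 to 5 days in N2B27 medium with 20 ng/ml BMP4. The replicates of both groups were independent cultures of different passages of that line, so they hold no variation between animals or lines. The primary astrocytes were wild-type C57BL/6J cells pulled out with magnetic beads against the surface antigen ACSA-2, with 2 mice pooled per isolation. Neonatal astrocytes came from cerebral tissue at 4 to 8 days of age, and adult astrocytes from brains of 100 to 140 days without olfactory bulb and cerebellum; the methods do not say whether the brain stem was taken off. Each was either frozen at once (neoAC direct, AdAC direct) or cultured for 7 to 10 days (neoAC CellC, AdAC CellC). The paper used a different tissue dissociation kit at each age, with removal of debris and red blood cells for adult cells only. Age therefore cannot be told apart from the tissue taken and the isolation protocol.

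The libraries held 27904126 to 37997368 counts in genes. Levels are given as CPM (counts divided by the library total after scaling with edgeR's TMM factors, times 1e6), as mean ± SD (n = 4 libraries). The floor was set at 3 counts per library, and a gene is called at the floor in a group where no library exceeded it, which corresponds to 0.0846 to 0.0997 CPM in the different groups. The floor covers counting error only. Of 10 astrocyte markers, the sum lay between 55390 and 60340 CPM in AGES and between 2019 and 2547 CPM in NSC, although Gja1 (10.3 CPM) and Aldh1l1 (14.97 CPM) were low in AGES. The sum was 1003 to 1521 CPM in AdAC CellC against 16250 to 16970 CPM in AdAC direct. The 3 pluripotency markers summed to at most 2.31 CPM in any library.

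The promoters of 3 members on which the results turn are printed first, as the 250 bases before the annotated start in RefSeq (mouse build GRCm38.p6), 5′ to 3′ on the gene's own strand. Hoxa5 was the highest member in the stem cell-derived cells, Hoxa2 rose during the change from NSC to AGES, and Hoxd1 was the highest member in AdAC direct. Capitals mark CG pairs, the sites of DNA methylation.
Hoxa5, chr6:52204588-52204837, minus strand: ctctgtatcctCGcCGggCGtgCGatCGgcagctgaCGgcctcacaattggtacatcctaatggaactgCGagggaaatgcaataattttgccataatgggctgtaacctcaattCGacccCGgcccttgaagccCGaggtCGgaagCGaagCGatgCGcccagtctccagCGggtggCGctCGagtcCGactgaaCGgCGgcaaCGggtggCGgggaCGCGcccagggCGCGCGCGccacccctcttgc
Hoxa2, chr6:52164832-52165081, minus strand: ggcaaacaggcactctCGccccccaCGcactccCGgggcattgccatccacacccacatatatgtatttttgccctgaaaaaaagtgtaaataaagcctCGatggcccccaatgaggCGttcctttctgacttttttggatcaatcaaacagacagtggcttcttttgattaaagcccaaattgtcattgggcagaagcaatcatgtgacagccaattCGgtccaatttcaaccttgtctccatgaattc
Hoxd1, chr2:74762730-74762979, plus strand: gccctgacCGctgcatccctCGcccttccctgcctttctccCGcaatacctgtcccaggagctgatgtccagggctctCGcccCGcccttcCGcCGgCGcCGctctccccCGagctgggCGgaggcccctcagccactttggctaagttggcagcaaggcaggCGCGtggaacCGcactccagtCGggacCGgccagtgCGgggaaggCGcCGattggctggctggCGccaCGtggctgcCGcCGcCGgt

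The Hoxa5 window held 28 CG pairs, a number reached by 7.61% of the 32851 windows of the same length in the table. The Hoxd1 window held 24, reached by 12% of windows, and the Hoxa2 window held 6, which is the median of all windows. Across the 24 windows that belonged to 22 members, the number ran from 2 to 35 with a median of 12.5. The letters TGATTNAT, a motif of the Pbx and Hox proteins when they bind together, were searched on both strands and stood in the Hoxa2 window but not in the other two; 2 of the 24 Hox windows and 2.82% of all windows held them. CCAAT stood in all 3 windows and in 33.8% of all windows, and TATAAA in none of the 3 and in 12.4% of all. A match is a run of letters and not a known site.

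Hox transcripts were abundant in both stem cell-derived groups and scarce in all 4 primary groups. Summed over the 39 members, the level was 225.2 ± 13.8 CPM in NSC and 203.4 ± 8.72 CPM in AGES (n = 4 each). It was 0.759 ± 0.163 CPM in neoAC CellC, 0.486 ± 0.126 CPM in neoAC direct, 0.701 ± 0.162 CPM in AdAC CellC and 1.69 ± 0.325 CPM in AdAC direct. In counts, every NSC and AGES library held between 5227 and 8030 Hox reads, and no primary library held more than 67. A mean of at least 1 CPM was reached by 13 members in NSC and by 13 in AGES, against 0 in each primary group. Of the 39 members, 28 were at the floor in all 4 primary groups, 12 were at the floor in all 6 groups, and 7 (Hoxb1, Hoxb6, Hoxc12, Hoxd9, Hoxd10, Hoxd11 and Hoxd12) had no count in any library.

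**Figure D1:**
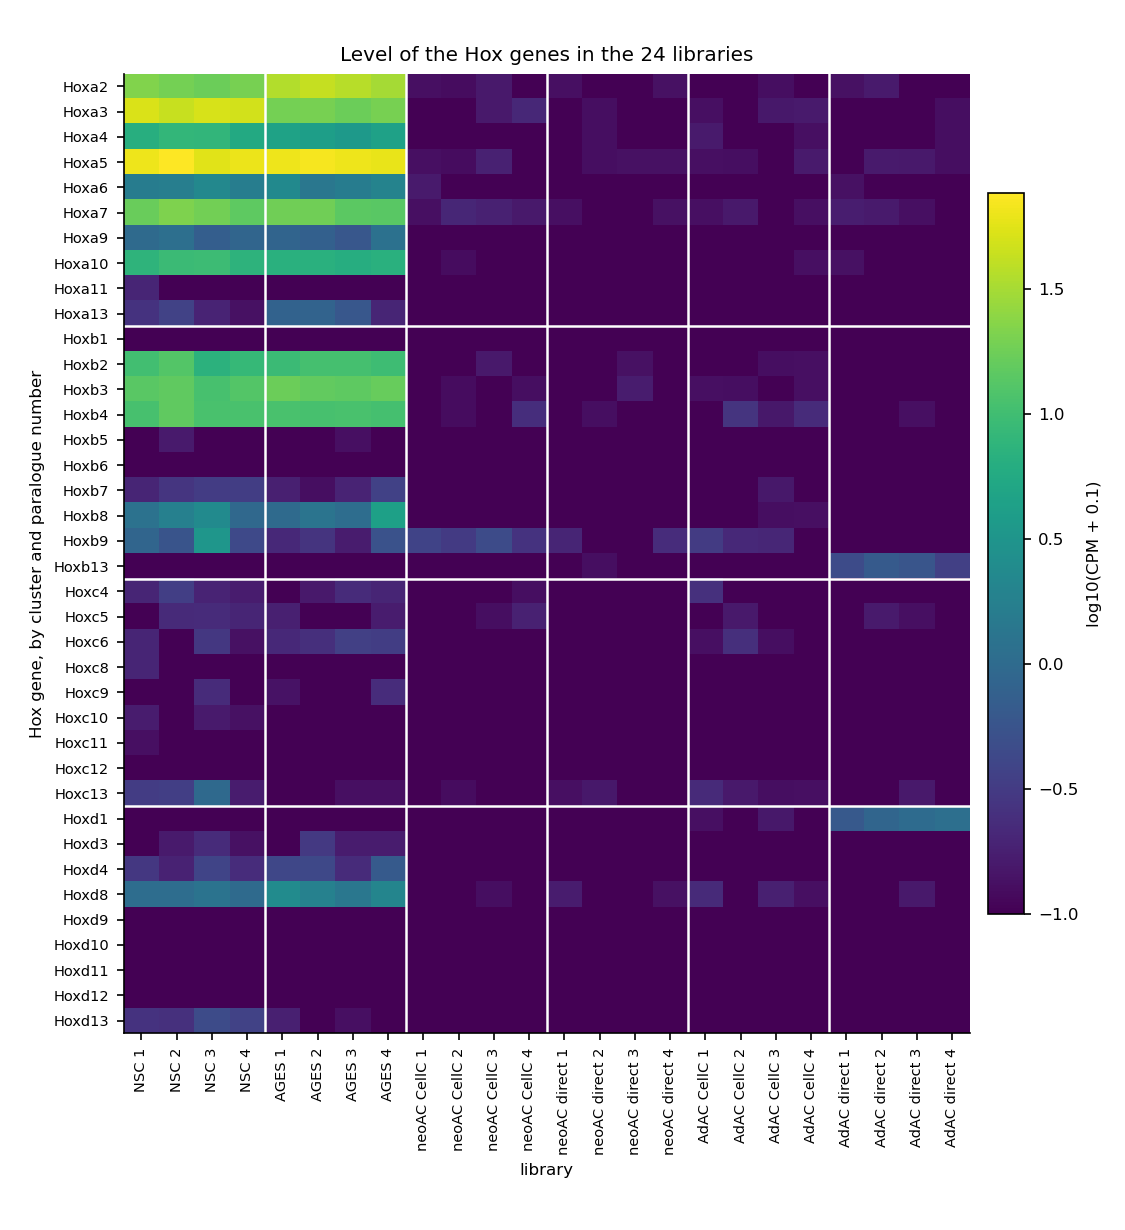
Levels of the Hox genes reported here (rows, by cluster and paralogue number) in the 24 libraries (columns, by group), coloured by log10(CPM + 0.1). The HoxA genes and the anterior HoxB genes stand out in the NSC and AGES columns, most HoxC and HoxD genes are dark there, and in the primary columns Hoxd1 shows in AdAC direct, at a mean of 0.817 CPM.

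Against the cultured primary cells the differences follow from how the set was chosen, and nothing is read from them. As lower bounds against a primary group at the floor, Hoxa5 was at least 768-fold higher in AGES than in neoAC CellC and at least 738-fold higher than in AdAC CellC. Hoxa2 was at least 431-fold and at least 414-fold higher, Hoxb3 at least 188-fold and 180.5-fold, and the posterior gene Hoxa10 at least 76.9-fold and 73.9-fold. Hoxb9 and Hoxd1 did not follow this pattern: the AGES mean of Hoxb9, 0.196 CPM, lay below its mean of 0.254 CPM in neoAC CellC, and Hoxd1 had no count in NSC or AGES.

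The stem cell-derived Hox signal came mainly from one cluster. HoxA (on chromosome 6, 11 Hox genes) took 82.3 ± 1.11% of the summed Hox level (in CPM, not divided by gene length) in NSC and 79.4 ± 1.55% in AGES. HoxB (chr11:96194316-96368256, 10 Hox genes) took 16.8 ± 1.23% and 19.3 ± 1.35%. HoxC (chr15:102921103-103036852, 9 genes) took 0.334% and 0.176%, and HoxD (chr2:74668310-74765142, 9 genes) 0.655% and 1.12%. Genes were ranked only by CPM per kilobase of exon (CPM/kb). On that scale the highest HoxC levels were 0.142 CPM/kb (Hoxc13 in NSC) and 0.0777 CPM/kb (Hoxc6 in AGES). The highest HoxD gene was Hoxd8, at 0.364 CPM/kb in NSC and 0.668 CPM/kb in AGES, followed by Hoxd4 at 0.126 and 0.235 CPM/kb.

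Within HoxA the level per kilobase did not fall steadily with paralogue number. Hoxa5, a central gene known for patterning the neck and upper trunk, stood highest at 34.7 ± 4.35 CPM/kb in NSC and 34.6 ± 1.69 CPM/kb in AGES. Below it in NSC stood Hoxa2 at 12.7 ± 1.21, Hoxa3 at 8.84 ± 0.648 and Hoxa7 at 6.16 ± 0.946 CPM/kb. Hoxa5 and Hoxa2 were separated by several times the larger SD. Hoxa4 (4.33), Hoxa10 (2.52) and Hoxa6 (1.96 CPM/kb) were lower. Beyond them the levels dropped: Hoxa9 was at 0.151 CPM/kb in NSC although Hoxa7 and Hoxa10 on either side of it were at 6.16 and 2.52, and Hoxa11 had 3 counts in 1 NSC library and none elsewhere in the stem cell-derived cells. Hoxa13, the most posterior HoxA gene, was at 0.0572 CPM/kb in NSC and 0.206 CPM/kb in AGES.

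In HoxB the signal sat in the anterior paralogues Hoxb2 to Hoxb4. Hoxb4 had 4.71 ± 0.746 CPM/kb in NSC and 4.34 ± 0.0999 in AGES, Hoxb3 3.12 ± 0.408 and 3.74 ± 0.262, and Hoxb2 2.76 ± 0.736 and 2.89 ± 0.205. Of the exon bases, 2250 of 4251 in Hoxb3 and 953 of 3488 in Hoxb2 lie in exons of the opposite strand. The lengths used here still include those bases. The order of these genes may therefore depend on the strand setting of the read counting, which was not given. Hoxb1, the most anterior HoxB gene, had no count, and Hoxb5 and Hoxb6 had 2 counts in 1 NSC library and 1 count in 1 AGES library between them. Members of 1 paralogue group could differ widely: Hoxa5 was the highest of all members while Hoxb5 was at the floor. Further back, Hoxb8 (0.566 and 0.692 CPM/kb) and Hoxb9 (0.462 and 0.0761 CPM/kb) were low, and Hoxb13 had no count in the stem cell-derived cells.

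**Figure D2:**
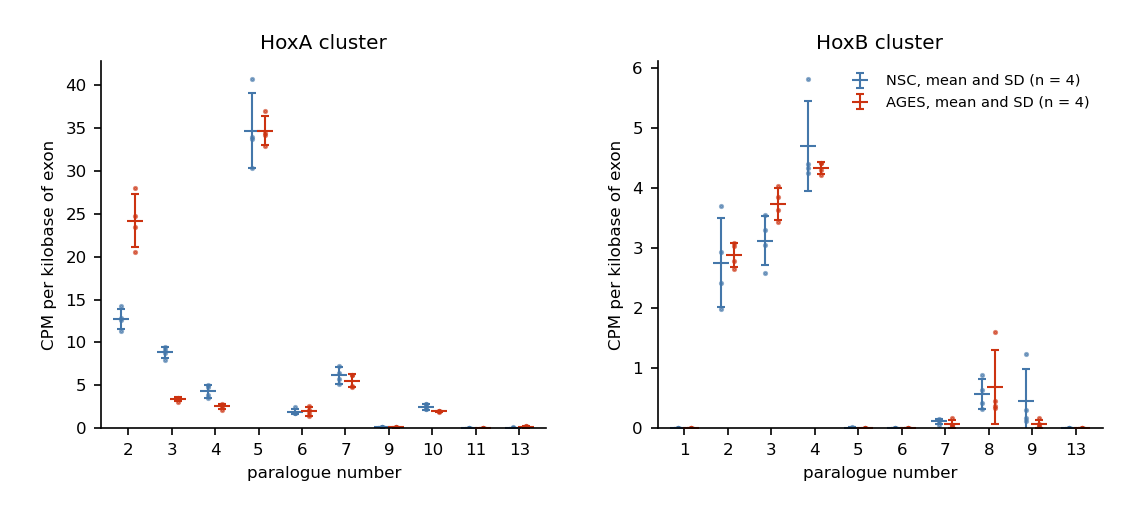
Levels of HoxA and HoxB genes in CPM per kilobase of exon against paralogue number, for NSC and AGES, with a separate axis for each cluster. Points are libraries and bars mean and SD (n = 4); HoxA peaks at Hoxa5 (34.7 CPM/kb in NSC) with a gap at Hoxa9, while HoxB is high from Hoxb2 to Hoxb4 and near 0 from Hoxb5 to Hoxb7.

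The comparison of AGES with NSC asks what the BMP4 step, with its change of medium and plating, did to the Hox genes. Per the paper's methods NSC were kept on gelatin, while AGES were seeded on poly-L-ornithine and laminin. BMP4 itself therefore cannot be told apart from the medium, the coating or the plating. This comparison is not the contrast that led to the set, but it shares the AGES libraries with it. All tested members but Hoxd1 entered the test through their level in NSC or AGES. The makeup of the Hox signal changed at the anterior end of HoxA: Hoxa2 rose, Hoxa3 and Hoxa4 fell, and Hoxa5 stayed within the spread of the cultures. Of the 16 members that could be tested, 5 changed (edgeR adjusted p under 0.05; 31.2%; 2 higher and 3 lower in AGES), against 65.7% of all genes tested (31.7% higher and 34% lower). The 5 were Hoxa2 and Hoxd8 (higher) and Hoxa3, Hoxa4 and Hoxb9 (lower). The call of Hoxb9 is a record only, because its level in NSC, the higher group, brought it into the test. The libraries of the groups did not overlap for 6 of the 16 members, against 58.3% of all genes. The median log2 fold change was -0.06 over the 16 members and 0.00 over all genes tested. These are bulk libraries, so fewer cells with a transcript and less of it per cell cannot be told apart, here or in any comparison that follows.

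Hoxa3, an anterior gene needed to form the thymus, the parathyroid glands and the skeleton of the throat, stood at 52.2, 43.96, 50.8 and 48.8 CPM in the 4 NSC libraries. In AGES it stood at 19.0, 19.5, 17.2 and 19.6 CPM. Every AGES library lay below every NSC library. The log2 fold change was -1.38 (SE 0.15, edgeR adjusted p = 1.55e-08), a 2.60-fold fall of the mean.

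Hoxa2, which specifies the second pharyngeal arch and the anterior hindbrain, moved the other way. Its levels were 21.5, 19.0, 17.0 and 19.4 CPM in NSC and 35.3, 42.2, 37.3 and 31.0 CPM in AGES. The groups did not overlap, and the log2 fold change was 0.92 (SE 0.15, edgeR adjusted p = 8.34e-06), or 1.90-fold. Hoxa2 and Hoxa3 lie next to each other on the minus strand of chromosome 6, at 52162417 to 52164831 and 52169062 to 52213336. Their ratio within a library, Hoxa3 counts over Hoxa2 counts and not divided by gene length, was 2.32 to 2.98 in NSC and 0.461 to 0.633 in AGES, without overlap. Per kilobase Hoxa2 stood above Hoxa3 in both groups, at 12.7 against 8.84 CPM/kb in NSC and 24.2 against 3.41 CPM/kb in AGES. Hoxa2 grew from 8.55 ± 0.879% to 17.9 ± 1.75% of the summed Hox level and Hoxa3 shrank from 21.8 ± 2.53% to 9.27 ± 0.498%.

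Hoxa4 fell as well, from 6.26, 8.04, 7.74 and 5.55 CPM in NSC to 4.49, 4.06, 3.43 and 4.41 CPM in AGES. The groups did not overlap, and the log2 fold change was -0.75 (SE 0.23, edgeR adjusted p = 0.0054). Without replicate 3 of each group it was -0.62 with an edgeR adjusted p of 0.0556.

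Hoxa5 and the central and posterior HoxA genes did not pass the test. Hoxa5 stood at 63.7, 76.4, 56.9 and 63.2 CPM in NSC and 64.2, 69.4, 64.6 and 61.8 CPM in AGES, so that the groups lay within each other, with a log2 fold change of -0.00 (SE 0.12). Hoxa6 (0.01, SE 0.31), Hoxa7 (-0.15, SE 0.17) and Hoxa9 (-0.15, SE 0.33) also had overlapping groups. Hoxa10, which helps to pattern the lumbar level, averaged 8.24 ± 1.09 CPM in NSC and 6.51 ± 0.282 CPM in AGES; the groups did not overlap and the log2 fold change was -0.34 (SE 0.19, edgeR adjusted p = 0.13).

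**Figure D3:**
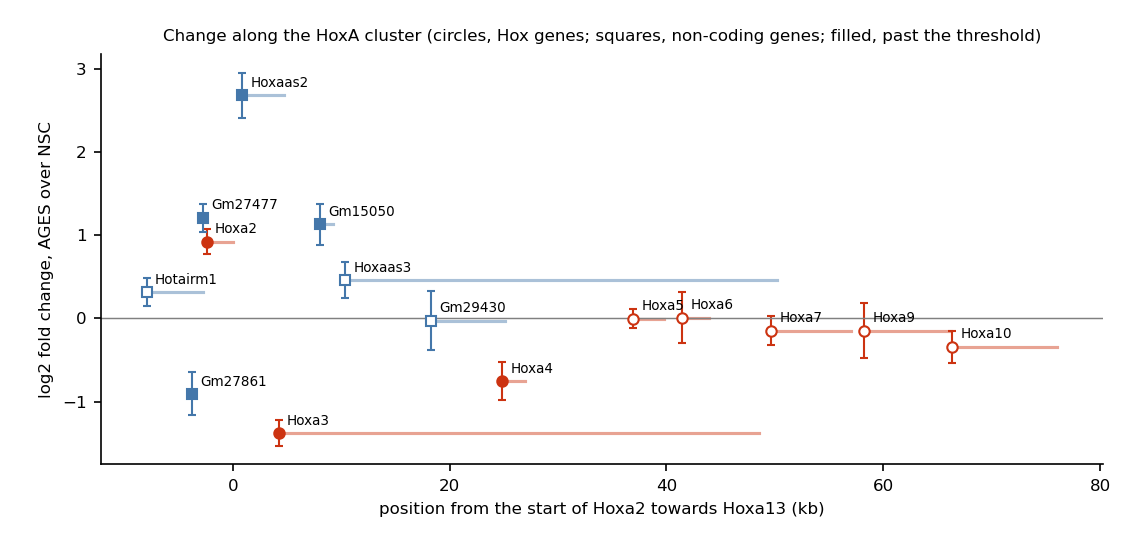
Log2 fold change of AGES against NSC (vertical axis, error bars 1 SE) along the HoxA cluster, by distance from the start of Hoxa2 towards Hoxa13 in kilobases. Circles are Hox genes, squares non-coding genes, lines the span of each gene, and filled symbols are past the threshold; the Hox genes change sign between Hoxa2 (0.92) and its neighbour Hoxa3 (-1.38), and flatten from Hoxa5 (-0.00) onwards.

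Among the HoxB genes, the anterior block did not pass the test. Hoxb2 (0.06, SE 0.22), Hoxb3 (0.26, SE 0.18) and Hoxb4 (-0.12, SE 0.23) had edgeR adjusted p-values of 0.826, 0.206 and 0.689. Hoxb4 was 10.9, 14.9, 11.1 and 11.3 CPM in NSC and 11.4, 11.02, 11.3 and 10.8 CPM in AGES, that is, level but for the second NSC library. Hoxb3 passed with DESeq2 (0.35, DESeq2 adjusted p = 0.0168). It also passed where only NSC and AGES entered the fit, without a replicate block (0.35, edgeR adjusted p = 0.0184) and with it (0.36, edgeR adjusted p = 0.0249). The posterior gene Hoxb9 averaged 1.19 ± 1.34 CPM in NSC and 0.196 ± 0.161 CPM in AGES. The log2 fold change was -2.57 (SE 0.71, edgeR adjusted p = 0.003). Hoxb9 entered the test through NSC, the group where it was higher, so its call is not read as a result. Its 4 NSC libraries held 24, 15, 100 and 10 counts and its AGES libraries 3, 6, 2 and 13, so the groups overlapped and the third NSC library carried most of the difference. Without that library the log2 fold change was -1.39 and the edgeR adjusted p 0.0605. Hoxb8 was uneven in the same manner in AGES, with 23, 41, 30 and 129 counts, and had a log2 fold change of 0.29 (SE 0.47).

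Hoxd8, a central gene, was the HoxD gene that entered the test through its level in these cells, with 30, 32, 36 and 27 counts in NSC and 60, 61, 40 and 59 in AGES. That is 1.00 ± 0.103 CPM against 1.83 ± 0.439 CPM, without overlap, and a log2 fold change of 0.87 (SE 0.35, edgeR adjusted p = 0.0298). Without the fourth AGES library it was 0.84, with an edgeR adjusted p of 0.0595. Hoxd8 also missed the threshold without replicate 1, 2 or 4 of each group (edgeR adjusted p = 0.129, 0.0508 and 0.119). Of the 23 members that the filter on low counts kept out of the test, 7 had no count in any library. Among the rest, 3 passed when no filter was applied, in different directions and on few reads. The share of all genes that passed in that fit was not determined, so these 3 are a record only. Hoxa13 was higher in AGES (18, 25, 16 and 3 counts against 5, 9, 3 and 1). Hoxc13 was lower (0, 0, 1 and 1 against 7, 8, 27 and 2), as was Hoxd13 (2, 0, 1 and 0 against 5, 5, 11 and 8). Their edgeR adjusted p-values in that fit were 0.0181, 0.000392 and 0.0121.

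The Hox clusters also hold 48 annotated non-coding genes and pseudogenes, 12 of which could be tested. They were looked at after the members' values were seen. Between AGES and NSC 7 of the 12 changed (58.3%), 5 higher and 2 lower in AGES, a share near the 65.7% of all genes (31.7% higher, 34% lower). Hoxaas2, an antisense transcript at 52165674 to 52169564 on the plus strand of chromosome 6, starts in the interval between Hoxa2 and Hoxa3 and runs into the 3′ end of Hoxa3. Its levels were 23.9, 51.0, 11.1 and 23.5 CPM in NSC and 140.5, 198.9, 187.7 and 177.8 CPM in AGES. No library overlapped, and the log2 fold change was 2.68 (SE 0.27, edgeR adjusted p = 7.62e-09), or 6.43-fold. Per library, the ratio of Hoxaas2 to Hoxa3 counts went from 0.580 ± 0.405 in NSC to 9.39 ± 1.53 in AGES.

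The other non-coding gene next to Hoxa2, Gm27477 (52162125 to 52162267, plus strand, annotated as a miscellaneous RNA), was 11.3, 10.2, 11.4 and 12.5 CPM in NSC and 29.6, 25.3, 23.1 and 27.1 CPM in AGES. It rose by 1.21 on the log2 scale (SE 0.17, edgeR adjusted p = 5.05e-07). Gm15050, also in HoxA, rose by 1.13 (SE 0.24, edgeR adjusted p = 0.000214), from 5.61 to 12.3 CPM. In HoxB, Gm11536 rose by 2.699 (SE 0.29, edgeR adjusted p = 1.56e-06), from 0.699 to 4.58 CPM, and Hoxb3os by 0.53 (SE 0.19, edgeR adjusted p = 0.0173), from 14.3 to 20.6 CPM; without the third NSC library Hoxb3os was at 0.47 with an edgeR adjusted p of 0.0547. Hotairm1, a non-coding transcript of the anterior end of HoxA, was abundant in both groups (43.2 ± 13.5 and 53.8 ± 4.08 CPM) and had a log2 fold change of 0.32 (SE 0.17, edgeR adjusted p = 0.0955). Some alternatives brought Hotairm1 past the threshold, such as DESeq2's size factors (0.41, edgeR adjusted p = 0.035). Gm27861 (-0.91, edgeR adjusted p = 0.00337) and the pseudogene Gm11539 (-1.15, edgeR adjusted p = 0.00639) fell.

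Hoxaas2 and Hoxa3 share 503 exon bases on opposite strands, and Gm15050 lies inside the span of Hoxa3; the strand setting of the read counting was not given in the sources used here. The counting options printed in the paper name no strand. Among 419 genes that lie wholly inside exons of the opposite strand, 257 had counts in any library and 65 reached 10 counts. Of 614 genes that lie wholly inside exons of the same strand, 50 had counts and 13 reached 10. No strand setting is read from these numbers. For Hoxd3 and Hoxd4 the counts are uncertain for another reason, since they share same-strand exons and reads in the shared part cannot be given to either. Smaller parts of Hoxa2 (267 of 1775 exon bases) and Hoxa3 (482 of 6014) also lie in same-strand exons of other genes. In all, 1529 exon bases of Hoxa3 lie in exons of the opposite strand.

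**Figure D4:**
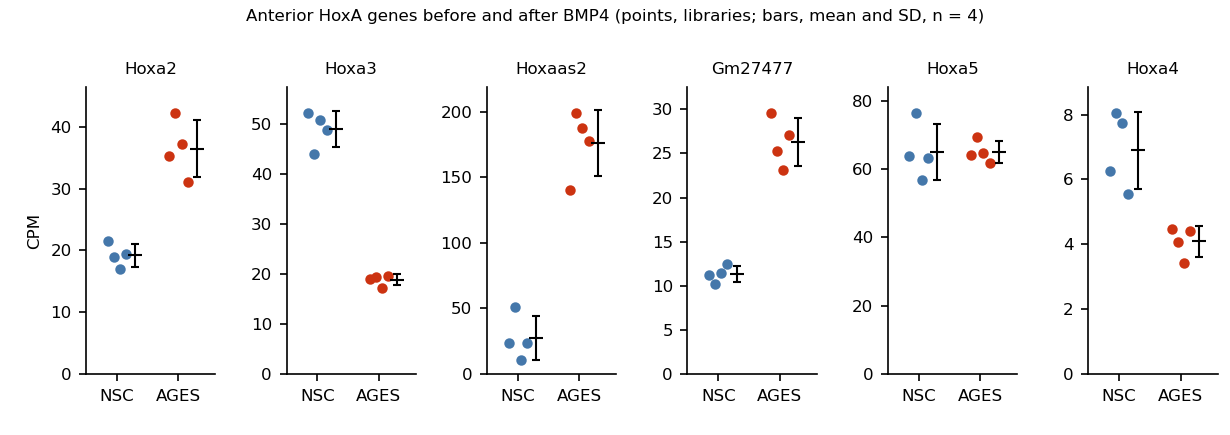
CPM per library in NSC and AGES for Hoxa2, Hoxa3, Hoxaas2, Gm27477, Hoxa5 and Hoxa4, each panel with its own axis from 0; points are the 4 libraries and bars mean and SD. Hoxa2, Hoxaas2 and Gm27477 are higher in every AGES library, Hoxa3 and Hoxa4 lower in every AGES library, and Hoxa5 overlaps.

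The genes known to work with or above the Hox genes were taken as whole lists, and read against the same 65.7% of all genes (31.7% higher and 34% lower). Hox proteins bind DNA together with the TALE proteins of the Pbx and Meis families, and 8 of the 9 TALE genes changed between NSC and AGES, 5 higher and 3 lower. Meis2 rose from 20.1 ± 4.03 to 83.1 ± 16.3 CPM (2.05, SE 0.14, edgeR adjusted p = 1.11e-12), and Meis3 from 9.87 ± 2.09 to 42.0 ± 0.488 CPM (2.09, SE 0.14). Pbx2, at 40.0 and 39.8 CPM, was the one that did not pass. In the primary astrocytes, where Hox RNA was scarce, Meis2 averaged 29.2 to 124.6 CPM.

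Of 10 genes known to act upstream of Hox genes, 5 could be tested and all 5 rose in AGES, with a median log2 fold change of 1.74. Among all genes tested 31.7% were higher in AGES. Egr2, which acts on Hoxa2 and Hoxb2 in the hindbrain, rose from 1.65 ± 0.728 to 4.17 ± 0.604 CPM (1.34, SE 0.26, edgeR adjusted p = 9.16e-05). Gdf11, a secreted factor that advances posterior Hox genes in the trunk, rose from 57.8 ± 9.79 to 193.6 ± 34.9 CPM (1.74, SE 0.13, edgeR adjusted p = 5.88e-12), and Gbx2 from 3.59 to 12.4 CPM. The trunk regulators Cdx1, Cdx2 and Cdx4 had no count in NSC or AGES.

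Retinoic acid, made from vitamin A, is the best known signal that turns on anterior Hox genes. Of 18 genes of its metabolism and receptors 17 were tested and 9 changed, 7 higher and 2 lower in AGES. Aldh1a1, an enzyme that makes retinoic acid, rose from 20.3 ± 7.45 to 461.4 ± 28.7 CPM (4.51, SE 0.23, edgeR adjusted p = 1.63e-14). Cyp26b1, an enzyme that destroys it, also rose, from 0.626 ± 0.860 to 19.2 ± 12.01 CPM (4.90, SE 0.60, edgeR adjusted p = 2.31e-07). The receptor gene Rxra rose by 0.78 on the log2 scale (SE 0.12).

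Polycomb proteins keep Hox genes silent and Trithorax proteins keep them active. Of 28 genes of both kinds 22 changed, 17 of them lower in AGES, with a median log2 fold change of -0.33. Among all genes tested 65.7% changed and 34% were lower in AGES. Ezh2, the enzyme that places the repressive methyl mark on histone H3, fell from 187.7 ± 9.86 to 31.8 ± 2.94 CPM (-2.56, SE 0.09, edgeR adjusted p = 3.13e-18). Cbx2 fell from 38.5 ± 7.42 to 8.88 ± 1.70 CPM (-2.11, SE 0.15) and Phc2 from 227.3 ± 10.1 to 89.95 ± 10.1 CPM (-1.34, SE 0.12). Cbx6 did not pass, at 209.6 and 218.3 CPM. Of the Trithorax genes Kmt2a had a log2 fold change of -0.23 (edgeR adjusted p = 0.0287), which missed the threshold with DESeq2 (-0.15).

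Genes that mark other positions on the head-to-tail axis were read in the same libraries, as levels. Lhx2, a forebrain gene, averaged 24.9 and 11.4 CPM in NSC and AGES and 52.1 to 231.0 CPM in the primary groups. En2, which marks the midbrain-hindbrain boundary, averaged 21.9 and 18.5 CPM in NSC and AGES and 0.860 to 14.3 CPM in the primary groups. The sum of the 8 midbrain-hindbrain genes was instead highest in AdAC CellC. It was 27.63 to 32.77 CPM in NSC, 32.32 to 39.01 CPM in AGES and 39.55 to 54.05 CPM in AdAC CellC. The sum was lower in neoAC CellC (6.053 to 8.093 CPM), neoAC direct (1.699 to 3.738 CPM) and AdAC direct (18.7 to 23.11 CPM). Between NSC and AGES, 6 of 12 forebrain genes changed (1 higher, 5 lower; Lhx2 at -1.13, edgeR adjusted p = 1.55e-09, and Dlx2 the one that rose, at 2.23). Of 8 midbrain-hindbrain genes 6 were tested and 2 rose, En1 (0.90, edgeR adjusted p = 0.0127; 0.63 and 0.148 without replicate 2 of each group) and Fgf17 (2.13, edgeR adjusted p = 2.19e-06). Of 6 Irx genes 4 were tested and 2 rose, Irx1 (0.54) and Irx3 (0.76). For all these lists the share of all genes that changed was 65.7% (31.7% higher and 34% lower).

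The genes that flank the 4 clusters gave a view of the neighbourhood. Of 16 listed, 15 were in the table, 13 were tested and 10 changed between NSC and AGES (4 higher and 6 lower). Among all genes tested 65.7% changed (31.7% higher and 34% lower). Skap2, which lies beside the anterior end of HoxA, averaged 451.2 ± 13.6 CPM in NSC and 602.5 ± 70.5 CPM in AGES (0.42, SE 0.09, edgeR adjusted p = 0.000367), and 21.9 to 35.1 CPM in the primary groups. Calcoco1, beside HoxC, rose by 2.38 (SE 0.10) and Hnrnpa3, near HoxD, fell by 2.05 (SE 0.08). Cbx5, the other flanking gene of high level, did not pass (0.15, edgeR adjusted p = 0.159).

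In the primary astrocytes the question is how the little Hox RNA there was differed with culture and with age, which here includes the isolation protocol. All members were under 1 CPM on average in every primary group. Per kilobase of exon the highest was Hoxb9 in neoAC CellC (9, 8, 13 and 6 counts, 0.0988 CPM/kb), Hoxb9 again in AdAC CellC (7, 4, 4 and 0 counts, 0.0425 CPM/kb) and Hoxd1 in AdAC direct (15, 25, 31 and 37 counts, 0.439 CPM/kb). A member entered these tests because of its level in NSC or AGES in all cases but Hoxd1, which entered through AdAC direct itself, so the counts of members called are given as a record only.

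Hoxd1, an anterior HoxD gene at 74762980 to 74765142 on the plus strand of chromosome 2, was seen in adult cells taken directly from the brain. It stood at 0.532, 0.772, 0.921 and 1.04 CPM in the 4 AdAC direct libraries. In AdAC CellC it had 1, 0, 2 and 0 counts, and it had no count in the 16 libraries of the other groups. Against a floor of 3 counts per library the Hoxd1 mean was at least 9.28-fold lower in AdAC CellC and at least 8.55-fold lower in neoAC direct than in AdAC direct, given as a description because AdAC direct alone brought the gene into the test. HoxD made up 48.7 ± 6.01% of the summed Hox level of AdAC direct.

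The non-coding gene Haglr starts 84 bases from Hoxd1 on the opposite strand (74748422 to 74762896 on chromosome 2) and was measured in the same samples. It had 57, 52, 63 and 54 counts in AdAC direct and 10, 13, 7 and 14 in AdAC CellC, without overlap, and none in any neonatal library. In AdAC CellC it was lower than in AdAC direct, 0.327 ± 0.107 against 1.76 ± 0.232 CPM. Against AdAC direct it was at least 18.4-fold lower in neoAC direct, and against AdAC CellC at least 3.86-fold lower in neoAC CellC; these too are descriptions of a gene picked for its pattern. In NSC and AGES it was at the floor.

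Hoxb13, the most posterior HoxB gene (96194316 to 96197447 on the plus strand of chromosome 11), was too low to enter the test and was singled out after its values were seen. It had 10, 18, 16 and 9 counts in AdAC direct, 1 count in 1 neoAC direct library and none in the other 19 libraries. AdAC direct was also the group richest in oligodendrocyte RNA. All 5 oligodendrocyte markers were above 1 CPM there, and their sum was 22450 to 25360 CPM, against 3601 to 9341 CPM in AdAC CellC, 34.8 to 53.9 CPM in neoAC direct and 55.8 to 141.7 CPM in neoAC CellC. Of these markers none was at 0 in any group. The 3 ependymal markers summed to 870.2 to 979.4 CPM in AdAC direct, 192.1 to 270.1 CPM in AdAC CellC, 113.1 to 170.5 CPM in neoAC direct and 1241 to 1571 CPM in neoAC CellC. Their part in the levels of Hoxd1, Haglr and Hoxb13 was not tested.

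**Figure D5:**
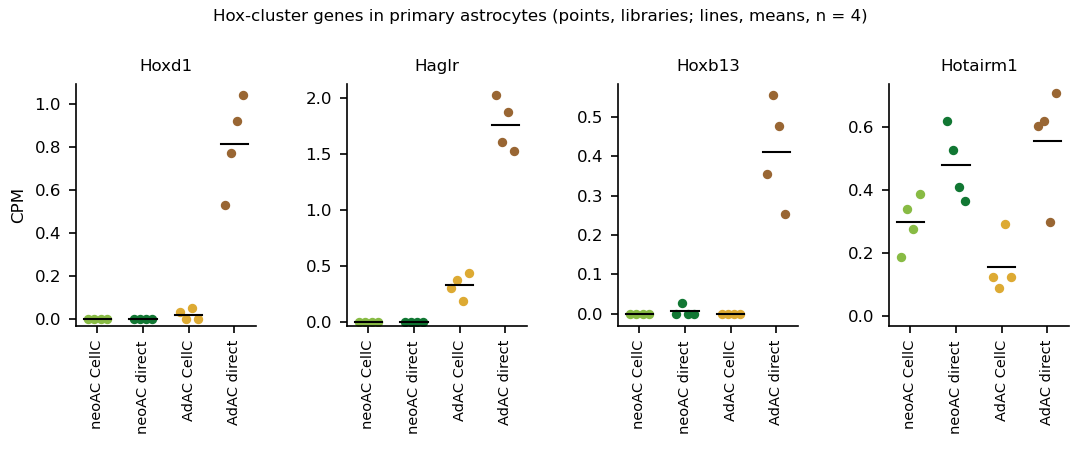
Levels of Hoxd1, Haglr, Hoxb13 and Hotairm1 in the 16 primary libraries, in CPM, each gene with its own axis; points are libraries and lines the group mean. Hoxd1, Haglr and Hoxb13 are highest in the 4 AdAC direct libraries (means 0.817, 1.76 and 0.410 CPM), and Hotairm1 is seen in all 4 groups, lowest in AdAC CellC (0.157 CPM).

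Between AdAC CellC and AdAC direct 4 of the 16 members passed the test (25%, against 78% of all genes, 38.8% higher and 39.2% lower), 2 higher (Hoxb4 and Hoxb9) and 2 lower (Hoxd1 among them) in culture. Hotairm1 had a log2 fold change of -1.77 (SE 0.40, edgeR adjusted p = 0.00034), from 0.556 ± 0.178 CPM in AdAC direct to 0.157 ± 0.0919 CPM in AdAC CellC. Hoxb4 (0, 6, 2 and 4 counts against 0, 0, 1 and 0; edgeR adjusted p = 0.0136) and Hoxb9 (7, 4, 4 and 0 against none; edgeR adjusted p = 0.0291) rest on a handful of reads and both overlapped. Hoxb4 missed the threshold without replicate 2 of each group (edgeR adjusted p = 0.154) and Hoxb9 without replicate 1 (0.138). The groups did not overlap for 1 member, Hoxd1, against 76.3% of all genes. Hoxd1 entered the test through AdAC direct, so neither its call nor its lack of overlap is read as a result.

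In neonatal cells 1 member passed between culture and direct isolation (6.25%, against 65.7% of all genes, 34.4% higher). It was Hoxa7, with 1, 4, 3 and 2 counts in neoAC CellC and 1, 0, 0 and 1 in neoAC direct (log2 fold change 1.91, SE 0.80, edgeR adjusted p = 0.0414). DESeq2 did not call it (adjusted p = 0.0765). Hoxb9 was the 1 member without overlap (9, 8, 13 and 6 against 3, 0, 0 and 4 counts; 58% of all genes did not overlap) and had an edgeR adjusted p of 0.0715.

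Between the ages, 2 members passed in culture (12.5%, against 63.8% of all genes, 28.5% higher and 35.2% lower) and 1, Hoxd1, passed in directly isolated cells (6.25%, against 71.4%, 36.4% lower). The libraries did not overlap for 0 members in culture (62.2% of all genes) and for 1, again Hoxd1, in directly isolated cells (64.9%). Because AdAC direct brought Hoxd1 into the test, its pass and lack of overlap there are a record only. In culture Hoxd8 was lower in neoAC CellC than in AdAC CellC, with 0, 0, 1 and 0 counts against 4, 0, 3 and 1 (edgeR adjusted p = 0.0437), and missed the threshold with DESeq2's size factors (0.0542). No member passed the test of whether culture acted differently at the 2 ages (interaction; 0 of 16 by edgeR, 0 with an unadjusted p under 0.05, and 2 by DESeq2, against 68.6% of all genes by edgeR). At these counts a change of a few reads decides a call, and most differences in members between the primary groups were hardly detectable at this depth.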

How the data were processed

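Gene counts of 24 libraries were used as deposited. Per the labels and methods, the authors prepared stranded polyA libraries, aligned reads with STAR 2.7.3a to GRCm38, counted reads over exons with featureCounts and deposited raw counts per gene. The strand setting was not given in the sources used here. Here, 49326 of 49671 identifiers matched the annotation used for names, coordinates and exon lengths. All 6 groups were fitted together with edgeR 4.0.16 (R 4.3.3; TMM, filterByExpr, robust quasi-likelihood test, 19691 genes, Benjamini-Hochberg adjustment over all of them, threshold 0.05). No replicate block was used: same-numbered libraries correlated by -0.152 to 0.328 between groups. The fit was tested on simulated data. Depth was 27904126 to 37997368 counts per library. DESeq2 1.42.0, other scalings, other filters and leaving out replicates were alternatives. Values without an edgeR p are descriptions. The members and the gene lists were chosen with earlier results of these data known. Named were the members, and of each further list the 3 highest genes and the 2 with the strongest change past the threshold; non-coding genes, Hoxb13, Gja1, Aldh1l1 and the untested Cdx genes were named after their values were seen. Some genes are not reported here.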

Additional observations from a re-analysis of the deposited data

Results flagged for a closer look

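In 10 of 103 sets of 4 libraries, 1 library stood far from the other 3 (the gap to its nearest neighbour took up more of the range than Dixon's 95% limit allows). Chance alone gives such a library in about 1 of 20 sets. Among the Hox genes these were Hoxb9 in NSC (3.18 CPM in the third library, the next at 0.782), Hoxb8 in AGES (4.25 CPM in the fourth, the next at 1.19), Hoxb4 in NSC (14.9 CPM in the second, the next at 11.3), Hoxa6 in NSC (2.13 CPM in the third) and Hoxa10 in AGES (6.09 CPM in the third, the lowest). The first AdAC direct library had the lowest summed Hox level of its group, 1.21 CPM against 1.79 to 1.89 CPM.

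Among the other listed genes these were Ezh2 in AGES (27.4 CPM in the first library, the lowest), Cbx2 in AGES (11.4 CPM in the second, the highest), Phc2 in NSC (242.4 CPM in the second, the highest) and En1 in NSC (4.40 CPM in the second, the lowest).

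The effect of culture differed between the ages for 2 non-coding genes of the clusters by edgeR's interaction term. The log2 differences were 4.40 for Hoxb3os (adjusted p = 0.0219) and 3.41 for Gm27861 (adjusted p = 0.0313), and both rest on 4 or fewer counts in every primary library.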

How the results depend on the processing

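The rise of Hoxa2 (log2 0.84 to 1.02), the fall of Hoxa3 (-1.45 to -1.28) and the rise of Hoxaas2 (2.39 to 3.11) between NSC and AGES passed the threshold under all 12 alternatives that gave a value. The number of members called was less stable. For AGES against NSC it was 5, 8 without the filter on low counts, 2 with a log2 change over 1, and 3 to 6 when replicates were left out in turn. For neoAC CellC against neoAC direct it was 1, 2 with library size only, 0 without the filter, and 0 to 2 with replicates left out. For AdAC CellC against AdAC direct it was 4, 1 with only the compared groups in the fit, 1 with those groups and a replicate block, and 2 to 5 with replicates left out. For neoAC CellC against AdAC CellC it was 2, 1 with DESeq2's size factors, 1 with library size only, and 1 with each replicate left out. For neoAC direct against AdAC direct it was 1, 2 without the filter, 2 with DESeq2, and 1 to 2 with replicates left out. For the interaction it was 0, 2 with DESeq2, and 0 to 2 with replicates left out. The cause of these moves was not tested, except that the filter sets how many members are tested (16 with it, 32 without) and leaving out replicates leaves fewer samples. With only AdAC CellC and AdAC direct in the fit, the filter left 1 member to test, with or without the block.

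Same-numbered libraries did not deviate together in every pair, so the replicate number was not used as a block. With the replicate block 6 members were called for AGES against NSC and 7 with the same groups and no block; Hoxb9 lost its call (adjusted p = 0.0662) and no other call for these groups was lost. Requiring 10 or more counts of each library left no member to test. Library size alone moved the median log2 change of all genes to 0.27 for neoAC CellC against neoAC direct and to -0.07 for AGES against NSC. No result changed direction with a call under any alternative. Depth limits the primary groups: with a floor of 3 counts per library, 28 members could not be distinguished from absence in any primary group.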
